A study of Mus musculus with 10 samples.

Results

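The neural microRNAs miR-9, miR-124 and miR-128 were followed in mouse embryonic stem cells that lack 1 step of the miRNA pathway. The members, chosen by name with earlier results of these data known, are 5 of the 1907 mature miRNA entries in the count table. They are both arms of the miR-9 hairpins (mmu-miR-9-5p and mmu-miR-9-3p), both arms of miR-124 (mmu-miR-124-3p and mmu-miR-124-5p), and mmu-miR-128-3p. The species prefix is dropped below. Small RNA was sequenced from E14 cells, a 129/Ola line, in 5 groups of 2 libraries each. Dgcr8_KO cells carry a Dgcr8 knockout and Drosha_KO cells a Drosha knockout, Dicer_KO cells lack Dicer, Ago12_KO cells are double knockouts of Ago1 and Ago2, and WT cells are wild type. All cells were grown in medium with 15% serum and 100 U/mL LIF on gelatine, with no differentiation step named in the labels. The labels name passages 25 and 33 for the WT libraries and a code for each Dicer_KO library. A date-like code stands in the labels of both Dgcr8_KO libraries, and another in those of both Ago12_KO libraries; what the codes record is not stated, and in comparisons with these mutants code and group cannot be told apart. For the other replicates no separate culture is stated, so a p-value here reflects sample-to-sample spread that may be technical.

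A primary miRNA transcript is cut to a hairpin by the Microprocessor, in which Dgcr8 binds the RNA and Drosha cuts it. Dicer then cuts the hairpin to a duplex, and an Argonaute protein keeps 1 strand as the guide, which pairs with target mRNAs through its seed, and the other strand is usually lost. miR-9 acts in neural progenitors, miR-124 is the classic miRNA of neurons, where it represses transcripts of other cell types, and miR-128 is a brain-enriched miRNA. Cultured stem cells are not a neural tissue.

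RefSeq held mature sequences for 3 of the 5 members, with coordinates on GRCm38.p6. They are shown because the whole mature sequence decides which reads can be told apart. Bases 2 to 8, the seed, are in capitals, and the 5p strands of both miR-128 hairpins are added.
miR-9-5p: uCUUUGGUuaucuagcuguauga
miR-9-3p: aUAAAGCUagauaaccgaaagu
miR-128-3p: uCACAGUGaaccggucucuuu
miR-128-1-5p: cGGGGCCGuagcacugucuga
miR-128-2-5p: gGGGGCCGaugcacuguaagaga
No other mature sequence among the 1679 in the RefSeq table carries the seed of miR-9-5p, miR-9-3p or miR-128-3p. The 5p strands of the miR-128 hairpins share a seed with each other and differ after it.

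The 3 miR-9 hairpins differ in loop and flanks and not in either mature arm, and the 2 miR-128 hairpins share the 3p arm alone. In the hairpins below, both mature arms are in capitals.
Mir9-1: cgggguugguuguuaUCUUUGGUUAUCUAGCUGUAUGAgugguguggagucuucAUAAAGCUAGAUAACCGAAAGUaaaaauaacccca
Mir9-2: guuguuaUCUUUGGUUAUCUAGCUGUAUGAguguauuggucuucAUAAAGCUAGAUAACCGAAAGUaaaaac
Mir9-3: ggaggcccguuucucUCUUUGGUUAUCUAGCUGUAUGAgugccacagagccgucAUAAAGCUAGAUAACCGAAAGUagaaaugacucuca
Mir128-1: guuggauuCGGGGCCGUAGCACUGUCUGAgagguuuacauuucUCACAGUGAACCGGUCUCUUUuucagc
Mir128-2: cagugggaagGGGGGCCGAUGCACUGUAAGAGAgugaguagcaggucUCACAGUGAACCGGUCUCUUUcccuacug
Mir9-1 lies at chr3:88215598-88215686 on the plus strand, in an intron of the lincRNA Gm3764 and opposite the miRNA gene Gm25641. Mir9-2 lies at chr13:83738814-83738885 on the plus strand, in an exon of the lincRNA C130071C03Rik. Mir9-3 lies at chr7:79505264-79505353 on the plus strand, in an intron of the lincRNA Mir9-3hg. Mir128-1 lies at chr1:128202361-128202430 on the plus strand, in an intron of R3hdm1, and Mir128-2 at chr9:112118636-112118711 on the minus strand, in an intron of Arpp21. A read of miR-9-5p, miR-9-3p or miR-128-3p therefore cannot be assigned to 1 hairpin by its mature sequence.

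Counts of miR-9 and miR-124 were nearly all multiples of 3. All counts of miR-9-5p (10 of 10 libraries with counts), miR-9-3p (5 of 5) and miR-124-5p (8 of 8) were multiples of 3. miR-124-3p was a multiple of 3 in 7 of its 8 libraries with counts, the exception being 956 in WT replicate 2. Counts of miR-128-3p had no common factor, with 41 and 1 among them, although 2 hairpins share its sequence, so the members were not all counted alike. Such multiples were few: 42 of the 865 entries detected in 3 or more libraries had a common factor above 1, and for 7 that factor was 3. If each read was counted 3 times, which is not stated, a level of miR-9 or miR-124 stands 3 times too high beside an entry counted once, while a comparison of 1 entry between groups keeps its ratio. Numbers of reads for miR-9 and miR-124 below are counts divided by 3 on that reading, and counting intervals use them. The edgeR and DESeq2 tests, with their SE and p-values, use the undivided counts. Only the alternatives with corrected repeat counts do not. Where counts stand 3 times too high, the tests rest on fewer reads than the counts they saw.

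Library totals ran from 37476 counts (Dicer_KO) to 2357868 (WT), and WT libraries were on average 6.16 times larger than Dgcr8_KO, 53.9 times larger than Drosha_KO, 52.0 times larger than Dicer_KO and 7.43 times larger than Ago12_KO libraries. A single count was worth between 0.424 and 26.7 CPM (counts per 1000000 counts of the library), so the same CPM rests on far fewer reads in Drosha_KO and Dicer_KO than in WT. Replicates of every group differed by more than counting error (chi-square per degree of freedom 3.88 to 63.9). A list of 13 entries typical of embryonic stem cells, from the miR-290 and miR-302 clusters, took 15.8% to 16.2% of the counts in Dgcr8_KO, 20.2% to 20.7% in Drosha_KO, 1.55% to 1.63% in Dicer_KO, 10.3% to 11.3% in Ago12_KO and 17.3% to 18.5% in WT. Lists of other cell types differed between groups as well. The fibroblast or feeder list of 8 entries took 3.09% to 3.63% of the counts in Ago12_KO, 1.37% to 2.67% in the other mutants and 4.36% to 4.58% in WT. The blood list of 6 entries stood at 0.868% to 1.13% in Ago12_KO, 0.0427% to 0.564% in the other mutants and 0.141% to 0.181% in WT, while the list of 3 liver and endoderm entries stood at 0.661% to 1.16% in Ago12_KO, 0.0104% to 0.0509% in the other mutants and 0.153% to 0.159% in WT. The 4 muscle entries summed to 0% to 0.0133%, with miR-1a-3p and miR-206-3p at 0 in all libraries. The part of these lists in the results below was not tested. A lower level is a lower share of the miRNA counts, in which fewer cells with a miRNA and less of it per cell cannot be told apart.

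The summed share of the 5 entries was 0.163% and 0.136% (Dgcr8_KO), 0.0557% and 0.0595% (Drosha_KO), 0.0641% and 0.0240% (Dicer_KO), 0.144% and 0.0976% (Ago12_KO) and 0.283% and 0.311% (WT) of the counts. Both libraries of each mutant lay below both WT libraries. The exact two-sided permutation test of each mutant against WT gave p = 0.333, the smallest that 2 against 2 libraries allow. In WT, by undivided counts, miR-128-3p ranked 64 of 1055 entries with counts, miR-9-5p 95, miR-124-3p 123, miR-124-5p 243 and miR-9-3p 482.

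**Figure D1:**
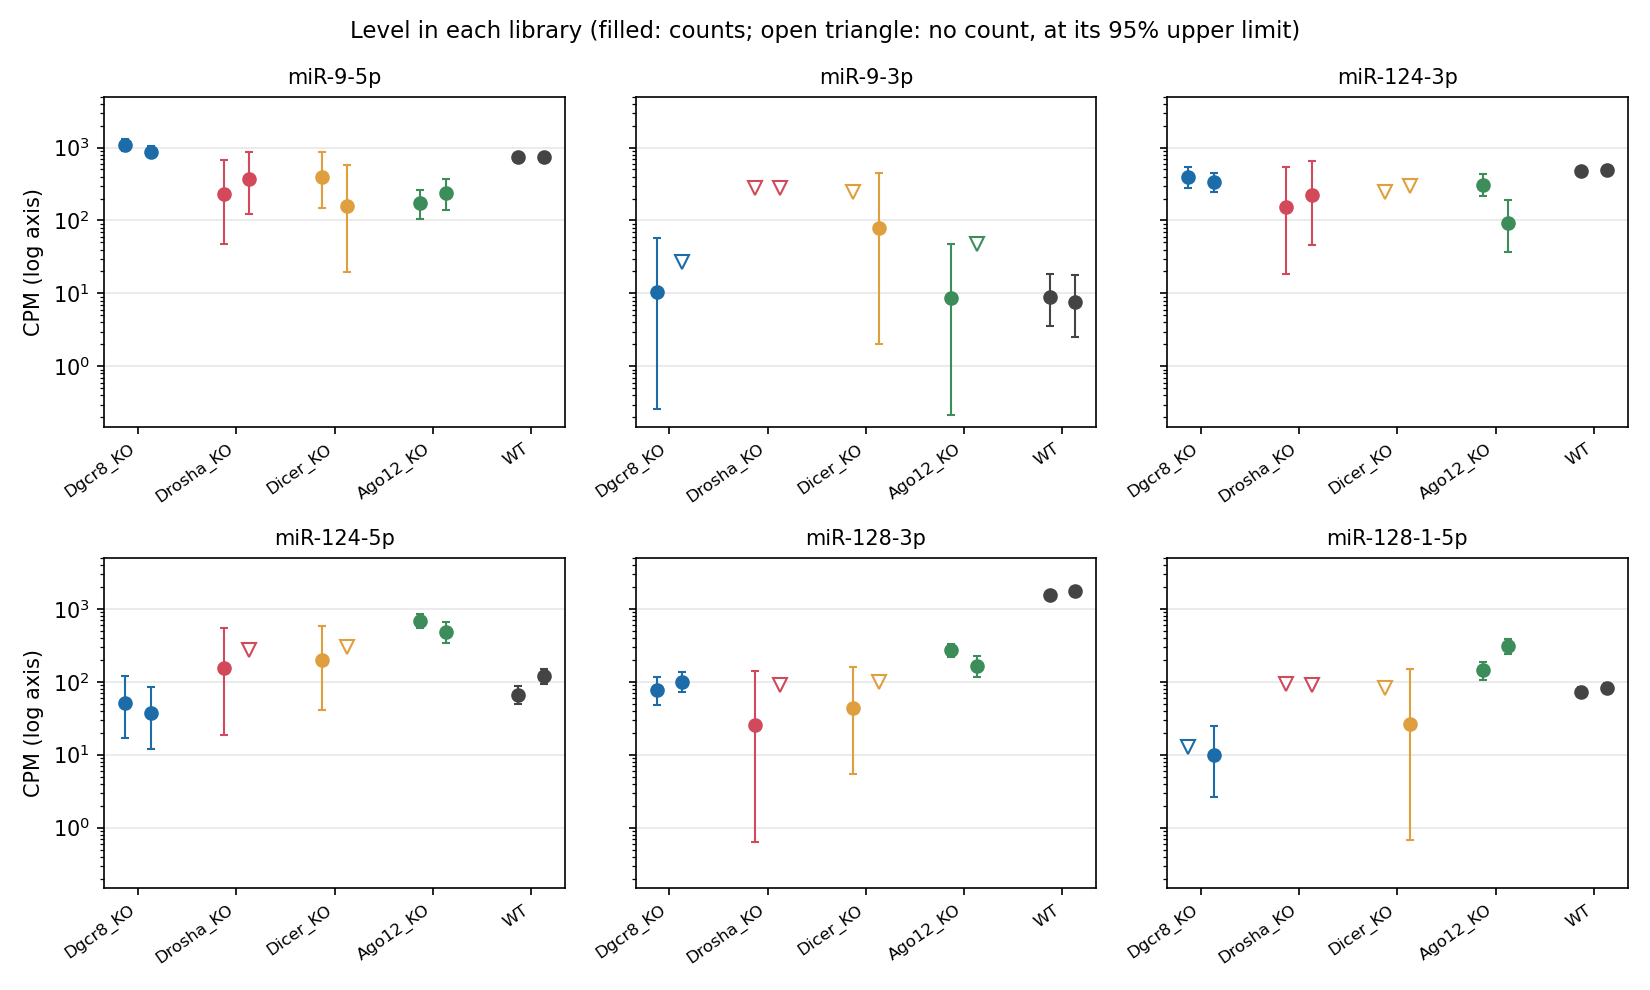
CPM of the 5 members and of miR-128-1-5p in each library on a log axis, with 95% exact binomial intervals that cover counting error only; an open triangle marks a library without a count, at its 95% upper limit. miR-128-3p stands at 1532 and 1745 CPM in WT and at 269 CPM or less in every mutant library, while miR-124-5p is highest in Ago12_KO.

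miR-9-5p, the main product of the miR-9 hairpins, had its highest level in Dgcr8_KO and lower levels than WT in the other mutants. It had 1098 and 881 CPM in Dgcr8_KO, 228 and 372 CPM in Drosha_KO, 398 and 160 CPM in Dicer_KO, 172 and 235 CPM in Ago12_KO, and 751 and 752 CPM in WT. Both Dgcr8_KO libraries lay above WT, all 6 other mutant libraries lay below it, and Drosha_KO, Dicer_KO and Ago12_KO overlapped with each other. The order of group means was Dgcr8_KO (990 ± 154), WT (751 ± 0.648), Drosha_KO (300.0 ± 102), Dicer_KO (279 ± 168) and Ago12_KO (204 ± 45.0; CPM, SD, n = 2 each).

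In Dgcr8_KO the log2 fold change of miR-9-5p was 0.40 (SE 0.34, edgeR adjusted p = 0.306). Of 20 alternatives, 1 called it higher, the fit of only the 2 groups (edgeR adjusted p = 0.0388). In Drosha_KO, on 8 reads, miR-9-5p fell by 1.32 on the log2 scale (SE 0.42, edgeR adjusted p = 0.0197). This call was lost without Drosha_KO replicate 1 (edgeR adjusted p = 0.115), WT replicate 1 (0.0633) or WT replicate 2 (0.0632), in a range of 0.00146 to 0.115 over the alternatives. In Ago12_KO it fell by 1.89 (SE 0.37, edgeR adjusted p = 0.00108), and all 20 alternatives kept that call.

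In Dicer_KO miR-9-5p also rested on 8 reads and fell by 1.40 on the log2 scale (SE 0.42, edgeR adjusted p = 0.0149), and this value changed with the library size used. The 5 entries miR-3963, miR-6240, miR-6236, miR-6239 and miR-1983, set apart as likely fragments of other RNAs from earlier results on these libraries, took 48.5% and 46.9% of the Dicer_KO counts, against 0.464% and 0.354% in WT. With them out of the totals the log2 fold change of miR-9-5p was -0.46 (edgeR adjusted p = 0.416), with DESeq2 size factors in edgeR it was -0.025 (0.961), and DESeq2 itself gave -0.0031 (0.999). The call was also lost without Dicer_KO replicate 2 (edgeR adjusted p = 0.125) or WT replicate 2 (0.0522), and the alternatives ranged from 0.00370 to 0.999.

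miR-9-3p, the other arm, had too few counts to be tested. Dgcr8_KO, Dicer_KO and Ago12_KO had 1 read each and Drosha_KO 0, against 7 and 5 in the WT libraries, where it stood at 8.91 and 7.72 CPM. The summed Drosha_KO libraries have no fold, since 3 reads there would exceed the WT level. The 5p arm held 99.1% and 100% of the miR-9 counts in Dgcr8_KO, 95.2% and 100% in Ago12_KO, and 98.8% and 99.0% in WT. The Ago12_KO shares lay on both sides of the WT shares, and no difference in arm use was detectable at this depth.

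miR-124-3p, the guide strand of miR-124 in neurons, stood highest in WT and was without a count in Dicer_KO. It had 394 and 337.7 CPM in Dgcr8_KO, 152 and 223.3 CPM in Drosha_KO, no count in either Dicer_KO library, 309 and 91.5 CPM in Ago12_KO, and 472 and 492 CPM in WT. Both WT libraries lay above all 8 mutant libraries, and Ago12_KO overlapped with Drosha_KO. Dicer_KO was at least 4.42-fold lower than WT, from the floor of 3 reads over the group, and called lower (edgeR adjusted p = 8.37e-04), also under all 20 alternatives. The 95% upper limits of its 2 libraries were 245 and 295.3 CPM, below both WT values. Those of the Drosha_KO libraries (548 and 652 CPM) and of Dgcr8_KO replicate 1 (540 CPM) exceeded both WT values. The bound and the limits use full library totals, of which fragment-like entries took 48.5% and 46.9% in Dicer_KO. Without these entries the Dicer_KO limits would be higher and the bound smaller, and neither was recomputed, so both hold for the full totals only.

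In Ago12_KO miR-124-3p fell by 1.23 on the log2 scale (SE 0.45, edgeR adjusted p = 0.0407), with its 2 libraries apart by more than their counting intervals (217 to 428 and 36.8 to 189 CPM). Without Ago12_KO replicate 2 the log2 fold change was -0.64 (edgeR adjusted p = 0.117), and 6 of 20 alternatives did not call it. These include the fits without Dgcr8_KO replicate 1 (edgeR adjusted p = 0.0561) or 2 (0.0568), without WT replicate 1 (0.109) or 2 (0.128), and with only the 2 groups (0.0759), in a range of 7.04e-04 to 0.128. In Dgcr8_KO the log2 fold change was -0.40 (SE 0.43, edgeR adjusted p = 0.424). In Drosha_KO, on 5 reads, it was -1.36 (SE 0.59, edgeR adjusted p = 0.0724), and 5 of 20 alternatives called it lower, TMM factors (0.0164) and leaving out Ago12_KO replicate 1 (0.00943) or replicate 2 (0.00995) among them, in a range of 0.00943 to 0.212.

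miR-124-5p, the strand that is minor in WT, rose in Ago12_KO while miR-124-3p, the other arm, fell. It had 51.8 and 36.7 CPM in Dgcr8_KO, 152 and 0 CPM in Drosha_KO, 199.02 and 0 CPM in Dicer_KO, 678 and 484 CPM in Ago12_KO, and 66.2 and 119 CPM in WT. Both Ago12_KO libraries lay above all 8 others, and Drosha_KO and Dicer_KO each spanned the WT values with a library at 0. The log2 fold change in Ago12_KO was 2.66 (SE 0.60, edgeR adjusted p = 0.00288), on 116 reads against 129 in the 7.43 times larger WT libraries, and it kept its call under all 20 alternatives. Its pooled fold was 6.68 (95% counting interval 5.16 to 8.66).

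In the other mutants miR-124-5p was not called. The log2 fold change in Dgcr8_KO was -1.08 (SE 0.68, edgeR adjusted p = 0.173), and 1 of 20 alternatives called it lower, the fit of only the 2 groups (0.0211). Drosha_KO had 2 reads and a pooled fold of 0.836 (counting interval 0.1001 to 3.08, edgeR adjusted p = 0.808), and Dicer_KO had 3 reads and a pooled fold of 1.21 (counting interval 0.246 to 3.62, edgeR adjusted p = 0.849). These intervals include both a large decrease and an increase.

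miR-128-3p, the guide strand of both miR-128 hairpins, had its highest level in WT and was lower in all 4 mutants. It had 76.0 and 100.3 CPM in Dgcr8_KO, 25.3 and 0 CPM in Drosha_KO, 44.2 and 0 CPM in Dicer_KO, 269 and 166 CPM in Ago12_KO, and 1532 and 1745 CPM in WT. No mutant library came near the WT values, and Ago12_KO, Dgcr8_KO and Dicer_KO followed each other without overlap, while Dicer_KO and Drosha_KO overlapped. In Ago12_KO it fell by 2.90 on the log2 scale (SE 0.40, edgeR adjusted p = 1.39e-04). In Dgcr8_KO it had 63 counts against 7004 in WT, or 18.0 times lower (counting interval 14.1 to 23.5), and was called at an edgeR adjusted p = 9.76e-06.

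Drosha_KO held 1 count of miR-128-3p and Dicer_KO 2. Their pooled levels were 129.96 times lower (counting interval 23.3 to 5134, edgeR adjusted p = 1.74e-05) and 67.3 times lower (counting interval 18.6 to 556, edgeR adjusted p = 1.87e-05). Each of the 4 calls against WT held under all 20 alternatives.

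The ratio of miR-128-3p to miR-9-5p counts within a library, both undivided, does not use the library total. Dgcr8_KO libraries had ratios of 0.0692 and 0.114, those of Drosha_KO and of Dicer_KO 0.111 and 0 each, those of Ago12_KO 1.57 and 0.704, and those of WT 2.04 and 2.32. All 8 mutant libraries lay below both WT libraries. The Ago12_KO libraries were nearest to WT.

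**Figure D2:**
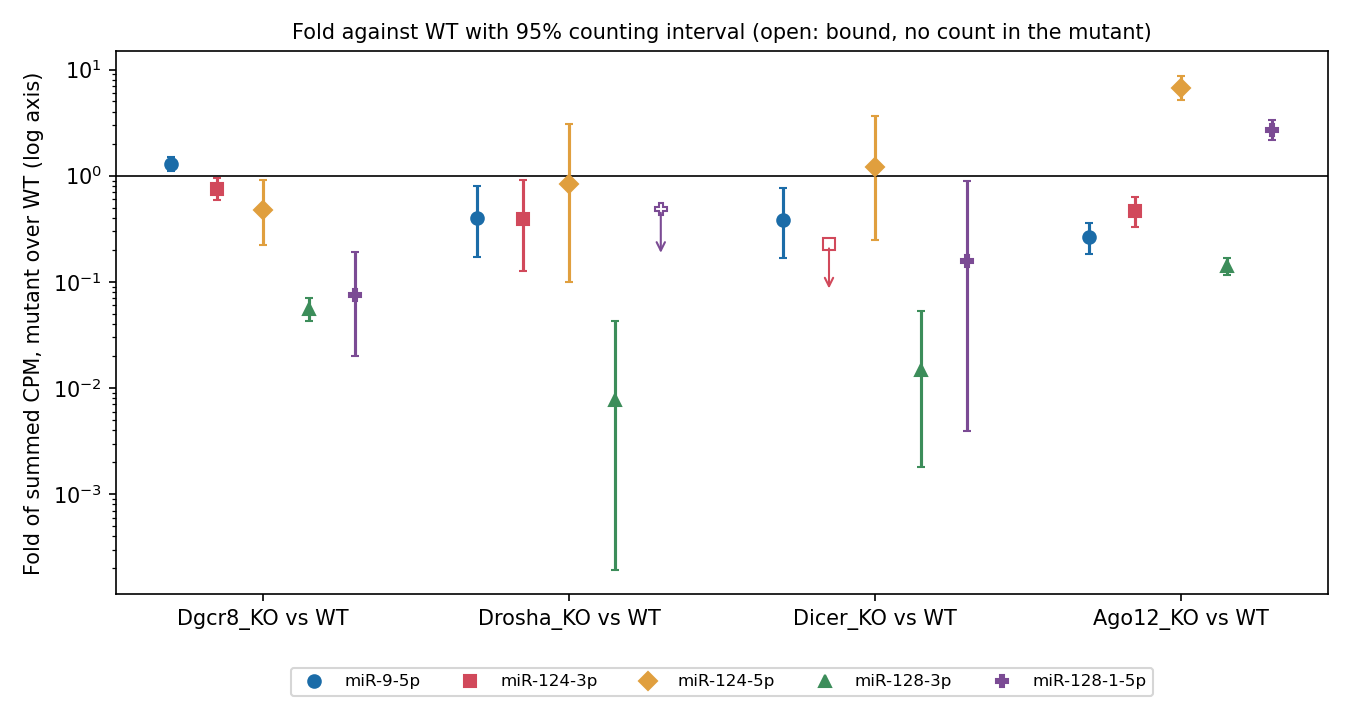
Fold of the summed CPM in each mutant over WT on a log axis for 4 members and miR-128-1-5p, with 95% counting intervals; open symbols with an arrow are bounds where the mutant had no count. miR-128-3p lies below 1 in all 4 mutants, and miR-124-5p and miR-128-1-5p lie above 1 in Ago12_KO, at 6.68 and 2.70.

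The members' calls stand beside those over all entries. Of the 4 members tested, Dgcr8_KO had 0 higher and 1 lower, where 32.4% of the 481 tested entries were called higher and 41% lower. Drosha_KO had 0 higher and 2 lower (26.2% higher and 31.6% lower of all). Dicer_KO had 0 higher and 3 lower (13.3% and 42.6% of all). Ago12_KO had 1 higher and 3 lower (28.7% and 25.8% of all).

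The 4 tested members had a median log2 fold change of -0.74 (Dgcr8_KO), -1.34 (Drosha_KO), -3.74 (Dicer_KO) and -1.56 (Ago12_KO), beside -0.41, -0.87, -2.78 and -0.016 over all tested entries. Entries without a count in 1 group were then put at their bound. They were put at 0 where the bound gave no fold or neither group had a count. The members then stood at -0.74 (Dgcr8_KO), -1.34 (Drosha_KO), -1.77 (Dicer_KO) and -1.56 (Ago12_KO). All tested entries then stood at -0.34, -3.4e-04, -0.81 and 0. The entries put at 0 draw the median of all entries towards 0, so its distance from the members' median is partly set by this rule. The median of all entries shifted under TMM factors by -0.31 (Dgcr8_KO), -0.60 (Drosha_KO), -0.28 (Dicer_KO) and -0.65 (Ago12_KO). DESeq2 size factors shifted it by 0.12 for Drosha_KO, 1.11 for Dicer_KO and -0.23 for Ago12_KO, and leaving out the fragment-like entries by 1.01 for Dicer_KO.

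The mutants were also compared directly. Between the Microprocessor mutants, miR-9-5p was higher in Dgcr8_KO than in Drosha_KO, by 1.72 on the log2 scale (SE 0.42, edgeR adjusted p = 0.0179), on 226 reads against 8. It was the member called of the 4 tested, and 5.61% of all entries were called higher. The pooled fold was 3.23 (counting interval 1.61 to 7.57), and the call was lost without Dgcr8_KO replicate 1 (0.111), Dgcr8_KO replicate 2 (0.0621) or Drosha_KO replicate 1 (0.0853), within edgeR adjusted p of 1.43e-04 to 0.111. miR-128-3p, with 63 counts in Dgcr8_KO and 1 in Drosha_KO, had a pooled fold of 7.20 (counting interval 1.25 to 289) and was not called (edgeR adjusted p = 0.115).

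Between Dicer_KO and Drosha_KO, miR-124-3p had 0 reads against 5 and was called lower in Dicer_KO (edgeR adjusted p = 0.0165). That was 1 member of 4, where 30.4% of all entries were called lower. With repeat counts corrected for miR-124-3p too, it was not called (edgeR adjusted p = 0.0774). The bound of at least 1.73-fold lower holds for the full totals only. It was not recomputed without fragment-like entries (48.5% and 46.9% of Dicer_KO counts, 4.53% and 4.26% of Drosha_KO counts), and would be smaller. The upper counting limits of the Dicer_KO libraries (245 and 295.3 CPM) exceeded both Drosha_KO values (152 and 223.3 CPM). The call was lost without Dicer_KO replicate 1 (0.0882) or replicate 2 (0.0686), and with DESeq2 size factors (0.0729), over a range of 4.89e-04 to 0.0882. miR-9-5p had 8 reads in each group, and its log2 fold change of -0.074 (SE 0.51, edgeR adjusted p = 0.968) turned positive under TMM factors (0.24) and DESeq2 size factors (1.17).

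Between Ago12_KO and Dicer_KO, 3 of 4 members were higher in Ago12_KO, beside 38.5% of all entries. miR-124-3p was at least 2.05-fold higher by the full library totals (edgeR adjusted p = 0.00790), a bound not recomputed without fragment-like entries. miR-124-5p, with 116 reads against 3, was 5.53-fold higher (counting interval 1.84 to 27.2, edgeR adjusted p = 0.0351), and miR-128-3p, with 94 and 38 counts in the Ago12_KO libraries against 2 in all in Dicer_KO, was 9.43-fold higher (counting interval 2.56 to 78.7, edgeR adjusted p = 0.00858). The calls of miR-124-5p and miR-128-3p changed with the library size used. Without the fragment-like entries in the totals, the log2 fold change of miR-124-5p was 1.53 (edgeR adjusted p = 0.196), in place of 2.45, and that of miR-128-3p was 2.27 (0.0657), in place of 3.18. TMM factors also lost miR-124-5p (0.0668), and DESeq2 lost both (0.569 and 0.281). With DESeq2 size factors in edgeR none of the 3 was called (adjusted p = 0.0970, 0.542 and 0.261). miR-9-5p, with a log2 fold change of -0.50 in Ago12_KO (edgeR adjusted p = 0.410), was called lower without fragment-like entries (-1.41, 0.0346), with DESeq2 size factors (-2.11, 0.00257) and in DESeq2 (-2.14, 1.00e-07). Without Dicer_KO replicate 2, miR-124-5p (0.193) and miR-128-3p (0.0666) lost their calls, and miR-124-5p without Ago12_KO replicate 1 (0.0797) and miR-124-3p without Dicer_KO replicate 1 (0.0672) did too. Their edgeR and DESeq2 adjusted p ranged from 4.50e-05 to 0.0970 for miR-124-3p, 3.26e-04 to 0.569 for miR-124-5p and 0.00171 to 0.281 for miR-128-3p.

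Both arms of a miRNA are counted in the same library, so their balance does not depend on the library total. No miR-124 hairpin was among the RefSeq sequences used here, so the number of its hairpins is not given. miR-124 was taken as 1 pair of arms. miR-124-5p held 11.6% and 9.80% of the miR-124 counts in Dgcr8_KO, 68.7% (95% exact interval 59.4 to 77.0) and 84.1% (69.9 to 93.4) in Ago12_KO, and 12.3% (9.32 to 15.8) and 19.5% (15.7 to 23.7) in WT. The strand that is minor in WT was the major one in both Ago12_KO libraries, whose intervals did not meet those of WT. Drosha_KO had 50.0% on 4 reads and 0% on 3, and Dicer_KO had 3 reads, all 5p, in 1 library and none in the other.

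miR-128 moved likewise, with miR-128-1-5p set against the miR-128-3p counts of both hairpins. miR-128-1-5p, the strand opposite miR-128-3p, had 0 and 9.79 CPM in Dgcr8_KO, no count in Drosha_KO, 0 and 26.7 CPM in Dicer_KO, 143.1 and 305 CPM in Ago12_KO, and 72.9 and 81.3 CPM in WT. Both Ago12_KO libraries lay above WT, and all 6 other mutant libraries below it. Its log2 fold change in Ago12_KO was 1.52 (SE 0.50, edgeR adjusted p = 0.0265), but TMM factors (0.170), DESeq2 size factors (0.0571), DESeq2 (0.0597) and the fits without Ago12_KO replicate 2 (0.142) or either WT library (0.148 and 0.120) did not call it. Its alternatives ranged from 0.00471 to 0.170.

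miR-128-1-5p was called lower in Dgcr8_KO, where it had 4 counts (13.4 times lower, counting interval 5.18 to 49.4, edgeR adjusted p = 0.00198). In Drosha_KO, with no count, it was at least 2.04-fold lower (edgeR adjusted p = 0.0445), a call lost under DESeq2 size factors (0.0522) and in each fit without a library of Drosha_KO, Dicer_KO or WT, with a range of 0.0166 to 0.109. In Dicer_KO, on 1 count, it was not called (edgeR adjusted p = 0.127). miR-128-2-5p had a single count in all 10 libraries, in Drosha_KO replicate 2.

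As a share of its own and the miR-128-3p counts, miR-128-1-5p held 0% and 8.89% in Dgcr8_KO, 34.7% (26.99 to 43.1) and 64.8% (55.0 to 73.8) in Ago12_KO, and 4.55% (3.90 to 5.26) and 4.45% (3.80 to 5.18) in WT. The 2 Ago12_KO libraries differed from each other by more than counting error, and both lay above every WT interval. The miR-128-3p counts include those from Mir128-2. For miR-124 and for miR-128-1 the exact two-sided permutation test of Ago12_KO against WT gave p = 0.333, the smallest possible.

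**Figure D3:**
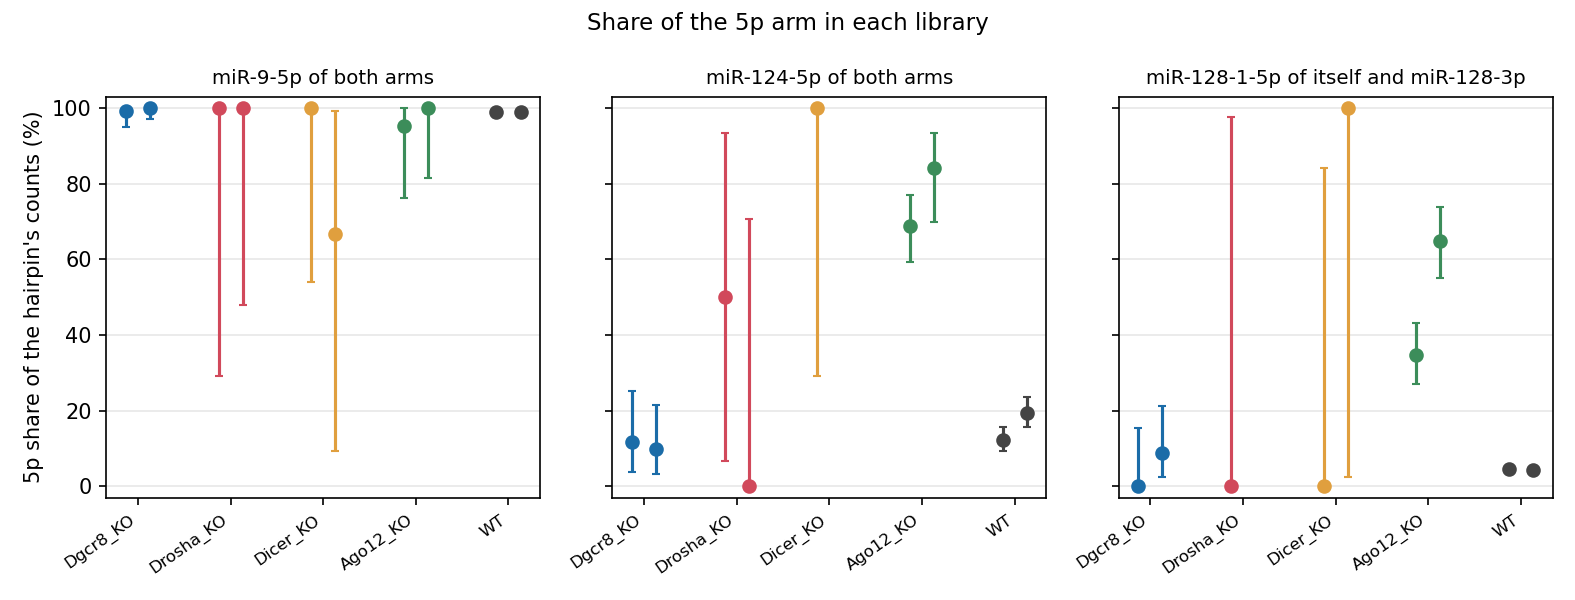
Share of the 5p arm in each library for miR-9, miR-124 and miR-128-1, with 95% exact binomial intervals on read numbers; libraries without a read of either arm have no point. The 5p arm of miR-124 holds 68.7% and 84.1% in Ago12_KO and 12.3% and 19.5% in WT, while that of miR-9 stays above 95% in both groups.

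edgeR tested the change in arm ratio over 91 hairpins (pairs of arms), with both arms at a mean of at least 20 counts. This test was chosen after the data were seen. It placed miR-124 and miR-128-1 among the strongest shifts in Ago12_KO. The log2 ratio of 5p to 3p rose by 4.04 for miR-124 (SE 0.48, edgeR adjusted p = 6.49e-07) and by 4.33 for miR-128-1 (SE 0.50, edgeR adjusted p = 4.22e-07). They ranked 7 and 4 of 91 by shift towards the arm that is minor in WT. Such a shift was common: the minor arm gained in 65.9% of the 91 hairpins by that test, with a median shift of 1.40. limma on the log2 ratios called miR-128-1 (adjusted p = 0.0246) and not miR-124 (0.0605), and the 9 alternatives ranged from 1.90e-22 to 0.0605 for miR-124.

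In Dgcr8_KO the minor arm gained in 3.3% of the 91 hairpins. Neither hairpin was called there, with a log2 change of -0.63 (SE 0.56, edgeR adjusted p = 0.559) for miR-124 and 0.45 (SE 1.28, edgeR adjusted p = 0.883) for miR-128-1. miR-9 was not among the 91, because its 3p arm fell short of 20 counts.

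**Figure D4:**
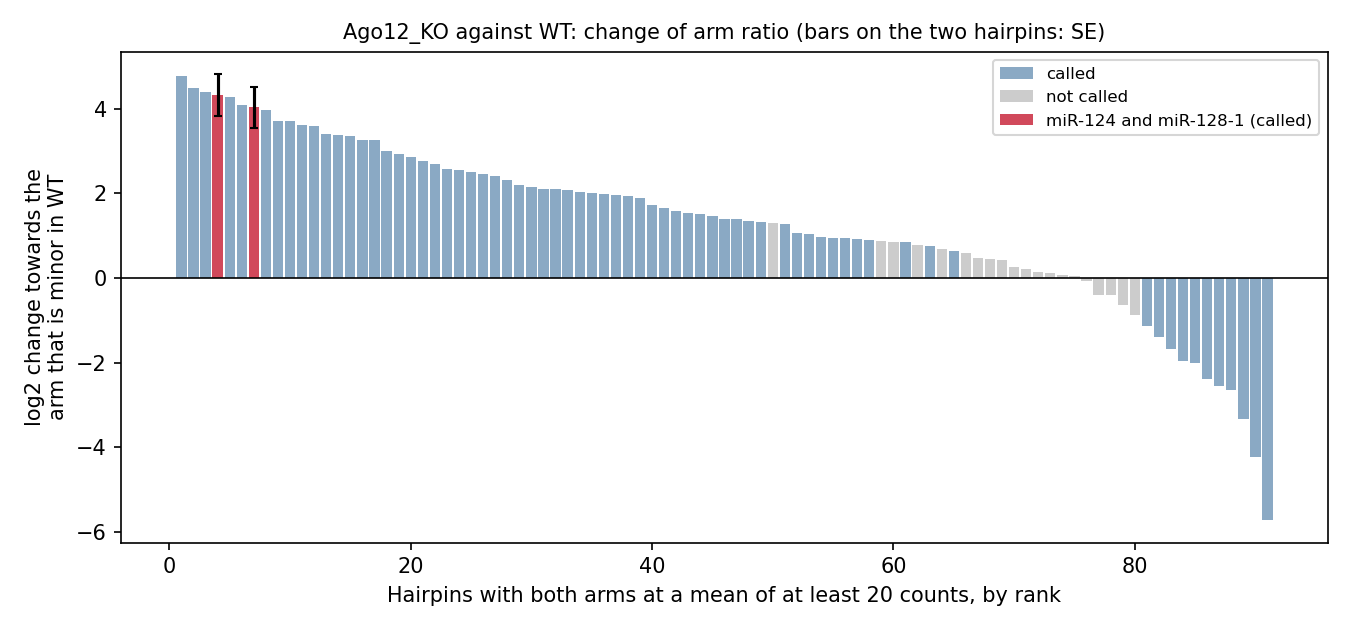
Change of the arm ratio in Ago12_KO against WT, as log2 change towards the arm that is minor in WT, for the 91 hairpins in order of size; blue hairpins were called by edgeR (adjusted p under 0.05), grey ones were not, and bars on miR-124 and miR-128-1 are SE. Both, at 4.04 and 4.33, stand among the highest ranks, above the median of 1.40.

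A wider neural list of 18 other entries, such as miR-132, miR-138, miR-7, miR-218 and miR-135, had members on both sides. Of these, 7 passed the filter on low counts. Dgcr8_KO had 3 of the 7 called higher and 3 lower against WT, beside 32.4% and 41% of all tested entries, with a median log2 fold change of -0.58 beside -0.41. Drosha_KO had 2 called higher and 0 lower, beside 26.2% and 31.6%, with a median of 0.70 beside -0.87. With bounds, or 0 where a bound gave no fold, that was 0.70 beside -3.4e-04, a median drawn towards 0 by the same rule. Dicer_KO had 1 called higher and 4 lower, beside 13.3% and 42.6%, with a median of -2.56 beside -2.78 (-0.71 beside -0.81 with bounds). Ago12_KO had 1 of each, beside 28.7% and 25.8%, with a median of 0.32 beside -0.016. miR-137-3p had no count in any library. The list's share of the counts was 0.0684% to 0.0700% (Dgcr8_KO), 0.400% to 0.531% (Drosha_KO), 0.117% to 0.161% (Dicer_KO), 0.0973% to 0.126% (Ago12_KO) and 0.0847% to 0.0875% (WT). A few entries made up most of the Dicer_KO and Drosha_KO sums. miR-135b-5p had 1393 and 1094 CPM of 1614 and 1174 CPM in Dicer_KO. In Drosha_KO, miR-7a-5p (2379 and 2456 CPM) and miR-138-5p (1164 and 2580 CPM) made up most of 3999 and 5309 CPM.

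The 4 tested entries of the list with the highest WT level are given by group. miR-7a-5p, known for its levels in neuroendocrine and neural cells, had 62.2 and 66.1 CPM in Dgcr8_KO, 2379 and 2456 CPM in Drosha_KO, 66.3 and 0 CPM in Dicer_KO, 246 and 497 CPM in Ago12_KO, and 204 and 191 CPM in WT. Both Drosha_KO libraries stood above all others (log2 fold change 3.61, SE 0.43, edgeR adjusted p = 3.10e-05), under all 20 alternatives. In Dgcr8_KO miR-7a-5p fell by 1.61 on the log2 scale (SE 0.44, edgeR adjusted p = 0.00663). In Dicer_KO it had 3 counts and was 5.45 times lower (counting interval 1.86 to 26.5, edgeR adjusted p = 0.0192). The first call was lost without Dgcr8_KO replicate 1 (0.0510) or 2 (0.0504), in a range of 8.31e-05 to 0.0510. The second was lost without fragment-like entries (0.161), with DESeq2 size factors (0.320), in DESeq2 (0.331) and without Dicer_KO replicate 2 (0.1252), in a range of 0.00717 to 0.331.

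miR-138-5p, a brain-enriched miRNA, had 76.0 and 127 CPM in Dgcr8_KO, 1164 and 2580 CPM in Drosha_KO, 22.1 and 53.4 CPM in Dicer_KO, 166 and 296 CPM in Ago12_KO, and 217 and 216 CPM in WT. It was higher in Drosha_KO (log2 fold change 3.11, edgeR adjusted p = 1.07e-04, called in all 20 alternatives). In Dgcr8_KO it fell by 1.07 (SE 0.44, edgeR adjusted p = 0.0444). That call ended without fragment-like entries (0.0566) and in each fit that left out 1 library of Dgcr8_KO, Dicer_KO or WT (0.0560 to 0.260), in a range of 0.00262 to 0.260. In Dicer_KO it had 3 counts and was 5.97 times lower (counting interval 2.04 to 28.98, edgeR adjusted p = 0.0196), a call lost without fragment-like entries (0.146), with DESeq2 size factors (0.309), in DESeq2 (0.314) and without Dicer_KO replicate 1 (0.181) or 2 (0.0607), with a range of 0.00247 to 0.314. In the direct comparison, Dgcr8_KO was lower than Drosha_KO for both, with a log2 fold change of -5.23 for miR-7a-5p (edgeR adjusted p = 4.77e-05) and -4.18 for miR-138-5p (edgeR adjusted p = 1.88e-04).

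miR-135b-5p had 1393 and 1094 CPM in Dicer_KO, against 112 and 131 CPM in WT, and the other 3 mutants had 0 to 223.3 CPM. It rose by 3.36 on the log2 scale in Dicer_KO (SE 0.41, edgeR adjusted p = 3.27e-05), in all 20 alternatives.

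miR-218-5p, known in motor neurons, had 48.4 and 44.0 CPM in Dgcr8_KO, 0 and 49.6 CPM in Drosha_KO, no count in Dicer_KO, 5.73 and 34.9 CPM in Ago12_KO, and 128.1 and 134 CPM in WT. Both WT libraries lay above all 8 mutant libraries. In Ago12_KO it fell by 2.84 on the log2 scale (SE 0.65, edgeR adjusted p = 0.00389), in all 20 alternatives. In Dgcr8_KO it fell by 1.51 (SE 0.55, edgeR adjusted p = 0.0289). Leaving out Dgcr8_KO replicate 1 (0.105) or 2 (0.1502), or WT replicate 1 (0.0931) or 2 (0.106), ended that call, in a range of 4.24e-04 to 0.1502. Dicer_KO was at least 3.61-fold lower (edgeR adjusted p = 0.0131), a call lost with DESeq2 size factors (0.0866), without fragment-like entries (0.0509), in DESeq2 (0.0563) and without Dicer_KO replicate 1 (0.0933) or 2 (0.0619), with a range of 9.36e-04 to 0.0933. In Drosha_KO, on 2 counts, it was not called (edgeR adjusted p = 0.0733).

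**Figure D5:**
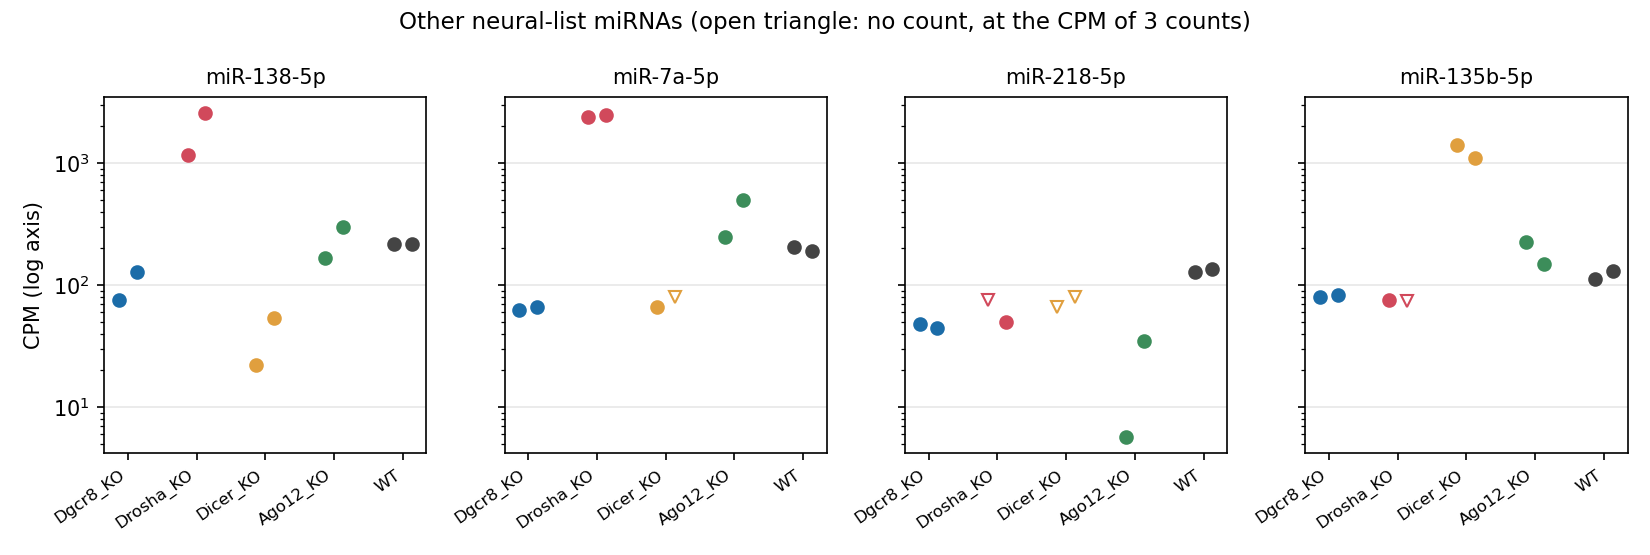
CPM of 4 entries of the wider neural list in each library on a log axis; an open triangle marks a library without a count, at the CPM of 3 counts. miR-138-5p and miR-7a-5p are highest in Drosha_KO (1164 to 2580 CPM), and miR-135b-5p in Dicer_KO (1393 and 1094 CPM).

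Correlations across libraries were computed for the 4 tested members. Over the 10 libraries, Pearson's r of log2 CPM was 0.22 between miR-124-3p and miR-124-5p, -0.066 between miR-9-5p and miR-124-5p, 0.50 between miR-9-5p and miR-124-3p, 0.45 between miR-9-5p and miR-128-3p, 0.55 between miR-124-3p and miR-128-3p and 0.67 between miR-124-5p and miR-128-3p. All of these points share the 5 groups and the same library depths. Among 477 other tested entries, the levels most like those of miR-9-5p were of miR-301a-3p (r 0.89), miR-495-3p (0.88) and miR-301b-3p (0.86). miR-124-3p was most like miR-101b-3p (0.97), miR-26a-5p (0.96) and miR-93-5p (0.96), and miR-124-5p like miR-466b-5p (0.87), miR-30e-3p (0.83) and miR-191-3p (0.81). miR-128-3p was most like miR-679-5p (0.93), miR-744-5p (0.92) and miR-3473d (0.92).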

How the data were processed

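Per the labels, a TruSeq small RNA kit turned 1 ug of total RNA into each library. The authors deposited 1 table of raw counts per mature miRNA, and Bowtie and mm10 are named in the submitters' processing notes. How reads with several places in the genome were counted, and against which miRBase release, is not given in the sources used here. All members, gene lists and tests were chosen with earlier results of these data known.

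The quasi-likelihood test of edgeR 4.0.16 in R 4.3.3 was run on these counts with the 10 libraries together (5 residual degrees of freedom). Library sizes were column totals, since other factors take most entries to be unchanged. filterByExpr kept 481 of 1907 entries, and p-values were adjusted over those 481 by Benjamini-Hochberg, with a call at an adjusted p under 0.05. SE was derived from the F statistic. A group with no count was given a bound from 3 reads over the group, and with few reads a ratio with its 95% counting interval, which covers counting error only. Bounds and counting intervals used the full column totals, fragment-like entries included. Arm ratios were tested with edgeR as an interaction of arm and group, and with limma 3.58.1. Named entries were all members, the miR-128 5p strands, up to 4 tested entries of the wider list with the highest WT mean CPM, and the 3 most correlated entries per member. Alternatives were other scalings, filters, corrected repeat counts, a replicate block, only 2 groups, DESeq2 1.42.0 and leaving out each library. The methods were tested on simulated data. miR-124 is named without a sequence. Sequences are RefSeq's on GRCm38.p6, with genes from GENCODE M21 on the same build.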

Additional observations from a re-analysis of the deposited data

How the results depend on the processing

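Of 918 recomputed log2 fold changes of single entries, 805 kept direction and side of the threshold, 73 lost a call, 22 gained one and 18 turned round. Of 140 recomputed counts of called members, 15 moved by over 1.5 times. With only the 2 groups fitted, Dgcr8_KO against WT had 3 called members (1 higher and 2 lower) in place of 1, and Dicer_KO against Drosha_KO had 0 in place of 1. That second count was also 0 with DESeq2 size factors or with repeat counts corrected for miR-124-3p too, and 2 in DESeq2. Ago12_KO against Dicer_KO had 1 in place of 3 with DESeq2 size factors. That 1 was called lower and 0 were called higher, where the main fit had 3 higher and 0 lower. The same comparison had 1 called higher and 1 lower without fragment-like entries, and also in DESeq2. Leaving out each library gave 1 to 3 for Drosha_KO against WT, 0 to 1 for Dgcr8_KO against Drosha_KO, 0 to 1 for Dicer_KO against Drosha_KO and 1 to 3 for Ago12_KO against Dicer_KO. The causes were not tested.

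Of the values that turned round, that of miR-9-5p in Dicer_KO against Drosha_KO was 0.24 with TMM factors, 1.17 with DESeq2 size factors, 0.80 without fragment-like entries and 1.19 in DESeq2, where it was called (adjusted p = 0.0245). With TMM factors miR-124-5p was at -0.084 in Dicer_KO, and miR-138-5p and miR-135b-5p were at -0.57 and -0.015 in Ago12_KO against WT. miR-138-5p there was at -0.17 with either use of DESeq2 factors. Leaving out each library gave -8.87 to 0.72 for miR-124-5p in Drosha_KO and -8.87 to 1.11 in Dicer_KO against WT, -0.38 to 0.45 for miR-138-5p in Ago12_KO against WT, -1.80 to 7.79 for miR-124-5p in Dgcr8_KO against Drosha_KO, -0.91 to 0.41 for miR-9-5p in Dicer_KO against Drosha_KO, -0.98 to 0.34 for miR-9-5p in Ago12_KO against Dicer_KO, and -4.09 to 1.07 for the arm ratio of miR-128-1 in Dgcr8_KO. None of these leave-one-out values was a call.

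Correcting repeat counts put the mean share of the 5 entries at 0.0811% in Dgcr8_KO, 0.0328% in Drosha_KO, 0.0163% in Dicer_KO, 0.0696% in Ago12_KO and 0.242% in WT. In Dicer_KO, where the deposited counts gave 0.0441%, the share without fragment-like entries was 0.0848%. Dividing miR-124-5p and not miR-124-3p put the mean 5p share of miR-124 at 3.85% in Dgcr8_KO, 53.0% in Ago12_KO and 5.96% in WT. With 0.5 counts added to each arm, the 5p share was 95.9% for miR-9 in Drosha_KO and 72.5% for miR-124 in Dicer_KO.

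No strong effect shared by libraries of the same replicate number was seen (correlation of deviations -0.065 to 0.14 over 10 pairs of groups, 1 of them over 0.1). Whether libraries were prepared in pairs cannot be read from this. A fit with the replicate block left the count of called members against WT at 1 for Dgcr8_KO, 2 for Drosha_KO, 3 for Dicer_KO and 4 for Ago12_KO.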
